A study of Homo sapiens with 6 samples.

Results

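The 36 genes described here encode enzymes that make nucleotides and the one-carbon units used to build them. They were chosen by symbol, as the rows that carry these names among the 15953 genes measured, and all 36 were found in each of the 6 libraries. They were read in 4 branches: 13 purine genes, 7 pyrimidine genes, 12 genes that make, salvage or remove the deoxynucleotides (dNTPs) of DNA, and 4 one-carbon genes. The libraries were made from EJ, a human cell line of bladder cancer, with 3 libraries of shSTIL cells and 3 of shNC cells. STIL encodes a protein of the centriole. The shSTIL cells were stable cells made with a lentivirus that knocks STIL down, and the shNC cells carried the negative control lentivirus, so that both groups had been transduced. The sequence and the number of hairpins, and the cultures or clones behind the replicates, are not given in the sources used here, so the p-values measure only the spread between these libraries, which may be technical. The comparison asks how the mRNA of these enzymes differed between STIL-knockdown and control cells.

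Cells build purines step by step on a ribose phosphate and build the pyrimidine ring first and attach it to the ribose phosphate later. Salvage enzymes return free bases and nucleosides to both pools. Ribonucleotide reductase turns ribonucleotides into deoxyribonucleotides, thymidylate synthase adds the methyl group of thymidine with a folate-borne one-carbon unit, and serine is the main donor of such units. Several dNTP enzymes are known to be made mostly while cells copy their DNA.

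The libraries held 16214772 to 16431242 reads in control cells and 16734469 to 16901634 reads in STIL-knockdown cells. Values are given as the deposited log2 CPM, the log2 of CPM (read counts scaled by library size) with a small prior count added, and a difference between the groups is the log2 fold change of STIL-knockdown against control cells on that scale. A gene was called (a DEG) when limma over all genes gave an adjusted p under 0.01. STIL itself had a log2 CPM of 5.98, 6.10 and 6.01 in control libraries and 4.05, 4.06 and 4.01 in STIL-knockdown libraries, which left 25.2% of the control level (limma adjusted p = 6.1e-12). Across all genes 23.6% were called lower and 23.5% higher, and the median log2 fold change was 0.0052. Of 14 urothelial and epithelial markers, 12 were measured, of which 2 were called lower and 1 higher, and their summed level was 1076 to 1134 CPM in control and 970 to 1002 CPM in STIL-knockdown libraries. KRT18, KRT8 and KRT7 were abundant (up to 10825, 6198 and 2229 reads per library), whereas UPK2, GATA3, KRT5, KRT20 and CDH1 had at most 9 reads in any library. KRT8 was called lower (log2 fold change -0.70), KRT7 was called higher (0.49) and KRT18 was not called (-0.05). UPK1B, at 5 to 20 reads, was lower in STIL-knockdown cells by a log2 fold change of -1.12. Of 9 markers of immune, endothelial, stromal and muscle cells, 5 were measured, 1 of which, COL1A1 at 21 to 59 reads, was called lower. Their summed level was 13.7 to 16.02 CPM in control and 14.1 to 16.6 CPM in STIL-knockdown libraries, most of it from CD68, while VWF and DES had at most 2 reads.

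Sequence before a RefSeq transcription start is shown for 4 genes that fell and for the stretch between 2 neighbouring genes that differed. All are plus-strand sequence of RefSeq on GRCh38.p14, the release of the build (hg38) the authors used. For RRM2 the capitals mark 3 CCAAT boxes (CCAAT), at chr2:10122606-10122729, before 1 of its 2 RefSeq starts. This stretch also holds coding exon of longer RRM2 transcripts of GENCODE 29.
RRM2: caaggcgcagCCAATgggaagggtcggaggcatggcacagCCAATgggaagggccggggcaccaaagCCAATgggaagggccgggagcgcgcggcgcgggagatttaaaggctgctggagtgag
For TYMS (chr18:657503-657627), DUT (chr15:48332153-48332182, before 1 of its 4 starts) and PRPS2 (chrX:12791382-12791411) the capitals mark E2F words, on either strand, searched as TTTCCCGC, TTTCGCGC, TTTGCCGC and TTTGGCGC. GENCODE 29 has transcripts of these 3 genes that start farther upstream, so that 24 bases of the TYMS stretch and all 30 of the DUT and of the PRPS2 stretch, the E2F words included, lie in untranslated exon of those transcripts.
TYMS: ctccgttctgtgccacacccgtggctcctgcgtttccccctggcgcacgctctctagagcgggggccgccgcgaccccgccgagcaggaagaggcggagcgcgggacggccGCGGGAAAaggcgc
DUT: tgGCGGGAAAtttcggtTTTGGCGCgctcc
PRPS2: tacatctagccgccgcgcTTTCCCGCtccc
PPAT and PAICS lie head to head on chromosome 4, and 125 bases separate their starts in GENCODE 29 (chr4:56435616-56435740). None of the words searched lies in this stretch, which therefore has no capitals.
PPAT-PAICS: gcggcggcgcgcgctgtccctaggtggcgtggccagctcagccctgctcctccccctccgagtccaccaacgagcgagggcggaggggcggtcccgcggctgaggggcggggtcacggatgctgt

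Of the 36 genes, 19 were lower and 4 higher in STIL-knockdown cells and 13 were not called, where 23.6% of all genes were called lower and 23.5% higher (47.1% in either direction). The median log2 fold change of the 36 genes was -0.22, against 0.0052 for all genes. Their summed level was 5219 to 5276 CPM in control libraries and 3770 to 3798 CPM in STIL-knockdown libraries, so that 72.0% of the control level was left. For 26 of the 36 genes no STIL-knockdown library lay within the range of the control libraries or the reverse, against 60.3% of all genes. The branches differed in what they held: 9 of 12 dNTP genes, 7 of 13 purine genes and 3 of 4 one-carbon genes were lower, and 0 of 7 pyrimidine genes.

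**Figure D1:**
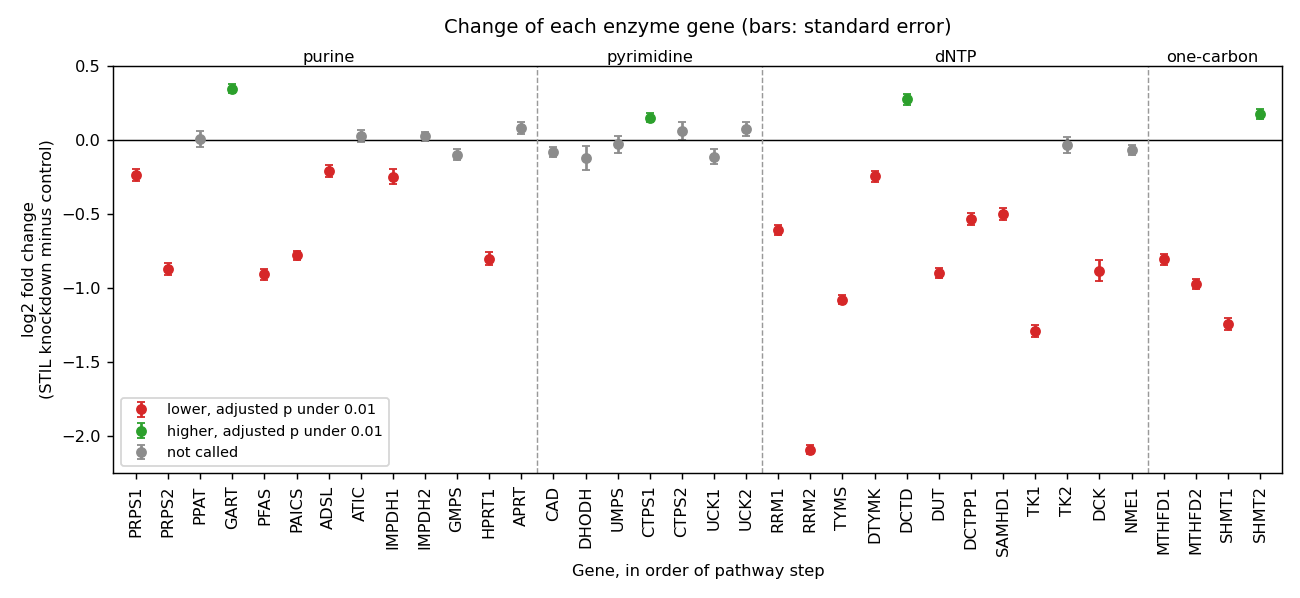
Log2 fold change of each of the 36 genes (STIL-knockdown minus control, log2 CPM), grouped by branch, with the standard error as bars. Red and green points are genes called lower and higher (limma adjusted p under 0.01), and grey points are genes not called. The dNTP genes reach -2.09 (RRM2), while the pyrimidine genes lie between -0.12 and 0.15.

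The dNTP branch kept the smallest share of its summed level among the 4 branches. Its 12 genes held 2058 to 2079 CPM in control and 1122 to 1141 CPM in STIL-knockdown libraries, which left 54.6%, with a median log2 fold change of -0.57. RRM2, TYMS and TK1 had the highest control levels and the largest falls of this branch, so they weigh most in its sum. By the median, the one-carbon branch was lower still (-0.89). RRM2, RRM1, TYMS, DUT, DTYMK, DCTPP1, SAMHD1, TK1 and DCK were lower, DCTD was higher, and TK2 and NME1 were not called. Beside this branch, 20 of 20 genes listed as S phase markers were lower, against 23.6% of all genes. The list was chosen with earlier results of these data known. Among these markers CCNE2 had the fewest reads (23 to 185 per library). Their median log2 fold change was -1.23. Their summed level was 2478 to 2543 CPM in control and 1096 to 1102 CPM in STIL-knockdown libraries (43.7% left). The part of these genes' change in the results for the nucleotide enzymes was not tested. In these bulk libraries, fewer cells in S phase and less mRNA per cell cannot be told apart. The S phase markers with a log2 fold change of -1 or less were CCNE2 (-2.80), MCM4 (-1.85), GINS2 (-1.74), CDC6 (-1.69), MCM2 (-1.53), PCNA (-1.47), MCM6 (-1.41), RFC2 (-1.39), FEN1 (-1.29), UHRF1 (-1.23), POLA1 (-1.22), MCM5 (-1.13), MCM3 (-1.13) and CDC45 (-1.02).

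Ribonucleotide reductase consists of a large subunit, RRM1, and a small subunit, RRM2, whose protein is made in S phase and degraded in mitosis. RRM2 (chromosome 2, 10120698 to 10131419, plus strand) had the largest fall of the 36 genes and rank 29 among the falls of all genes. Its log2 CPM was 9.02, 9.05 and 9.06 in control libraries and 6.98, 6.90 and 6.97 in STIL-knockdown libraries. All STIL-knockdown libraries lay well below all control libraries, with a log2 fold change of -2.09 (SE 0.03, limma adjusted p = 1.0e-13) and 23.4% of control left. RRM1 (chromosome 11, 4094707 to 4138876, plus strand) had a log2 CPM of 7.44, 7.51 and 7.50 in control libraries and 6.90, 6.85 and 6.87 in STIL-knockdown libraries. It fell less, by a log2 fold change of -0.61 (SE 0.03, limma adjusted p = 3.9e-09), to 65.6% of control. Reads per kilobase showed the same in proportions: the ratio of RRM2 to RRM1 was 2.48 ± 0.03 in control and 0.885 ± 0.014 in STIL-knockdown libraries (SD, n = 3). By this measure RRM2 mRNA was the more abundant subunit in control cells and the less abundant in STIL-knockdown cells. The lengths are of the longest coding transcripts (3673 bases for RRM2, 3076 for RRM1), and the order in STIL-knockdown cells depends on them. Without division by length, RRM2 did not lie below RRM1 in any STIL-knockdown library. The log2 ratio of RRM2 to RRM1 on the log2 CPM scale was 1.58, 1.55 and 1.56 in control libraries and 0.09, 0.05 and 0.10 in STIL-knockdown libraries, which differ by -1.48 (SE 0.02).

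TYMS encodes thymidylate synthase, which methylates dUMP to dTMP. TYMS (chromosome 18, 657604 to 673578, plus strand) had a log2 CPM of 8.49, 8.43 and 8.47 in control libraries and 7.40, 7.40 and 7.36 in STIL-knockdown libraries. The groups were far apart, with a log2 fold change of -1.08 (SE 0.03, limma adjusted p = 1.3e-11) and 47.3% of control left. Its exons share 967 bases with ENOSF1 on the opposite strand, and ENOSF1 had a log2 fold change of -0.41. Whether the authors' counting used the strand is not given in the sources used here, so reads of such partners cannot be told apart. DUT encodes dUTPase, which removes dUTP and yields the dUMP that TYMS uses. DUT (chromosome 15, 48331011 to 48343373, plus strand) had a log2 CPM of 7.24, 7.33 and 7.24 in control libraries and 6.36, 6.37 and 6.38 in STIL-knockdown libraries. Its log2 fold change was -0.90 (SE 0.04, limma adjusted p = 2.0e-10), which left 53.6%. DTYMK, the kinase that phosphorylates dTMP, fell less, to 84.3% of control (log2 fold change -0.25, limma adjusted p = 5.1e-05). DCTD, the deaminase that makes dUMP from dCMP, was the 1 dNTP gene that rose, with a log2 CPM of 6.62, 6.66 and 6.62 in control libraries and 6.86, 6.95 and 6.91 in STIL-knockdown libraries (log2 fold change 0.28, limma adjusted p = 1.7e-05). Thus TYMS, which uses dUMP, and DUT, which makes it, were lower, and DCTD, which also makes it, was higher.

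Of the dNTP salvage kinases among the 36 genes, TK1 and DCK of the cytosol fell and TK2 of mitochondria did not pass the test. DGUOK, a mitochondrial salvage kinase outside the 36 genes, was picked after its value was seen. It was higher (log2 fold change 0.38, limma adjusted p = 3.6e-06). TK1, the cytosolic thymidine kinase (chromosome 17, 78174075 to 78187233, minus strand), had a log2 CPM of 8.01, 7.86 and 7.92 in control libraries and 6.61, 6.67 and 6.65 in STIL-knockdown libraries. This was the second largest fall of the 36 genes, with a log2 fold change of -1.29 (SE 0.04, limma adjusted p = 2.9e-11) and 41.0% left. TK2, the mitochondrial thymidine kinase, had a log2 CPM of 5.48, 5.49 and 5.64 in control libraries and 5.52, 5.54 and 5.46 in STIL-knockdown libraries. Its groups overlapped, and its log2 fold change was -0.03 (SE 0.05, limma adjusted p = 0.62). DCK, which phosphorylates deoxycytidine, had a log2 CPM of 5.78, 6.01 and 5.86 in control libraries and 5.13, 4.999 and 4.87 in STIL-knockdown libraries. Its libraries spread more than those of the other kinases, with a log2 fold change of -0.88 (SE 0.07, limma adjusted p = 1.8e-07). DCK shares 199 exon bases with MOB1B on the same strand.

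Of the other enzymes that remove dNTPs, SAMHD1 and DCTPP1 also fell, by less than DUT. SAMHD1, which breaks dNTPs down to nucleosides, had a log2 CPM of 6.05, 6.03 and 5.997 in control libraries and 5.56, 5.48 and 5.53 in STIL-knockdown libraries. Its log2 fold change was -0.50 (SE 0.04, limma adjusted p = 2.4e-07). DCTPP1, a dCTP pyrophosphatase, had a log2 CPM of 6.11, 6.03 and 6.08 in control libraries and 5.55, 5.55 and 5.52 in STIL-knockdown libraries. Its log2 fold change was -0.54 (SE 0.04, limma adjusted p = 1.1e-07), and neither gene's groups overlapped. NME1, a nucleoside diphosphate kinase that acts on ribonucleotides too, showed a log2 fold change of -0.07 (adjusted p = 0.13, limma). It shares 638 exon bases with the NME1-NME2 readthrough gene on the same strand, which makes its value uncertain.

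**Figure D2:**
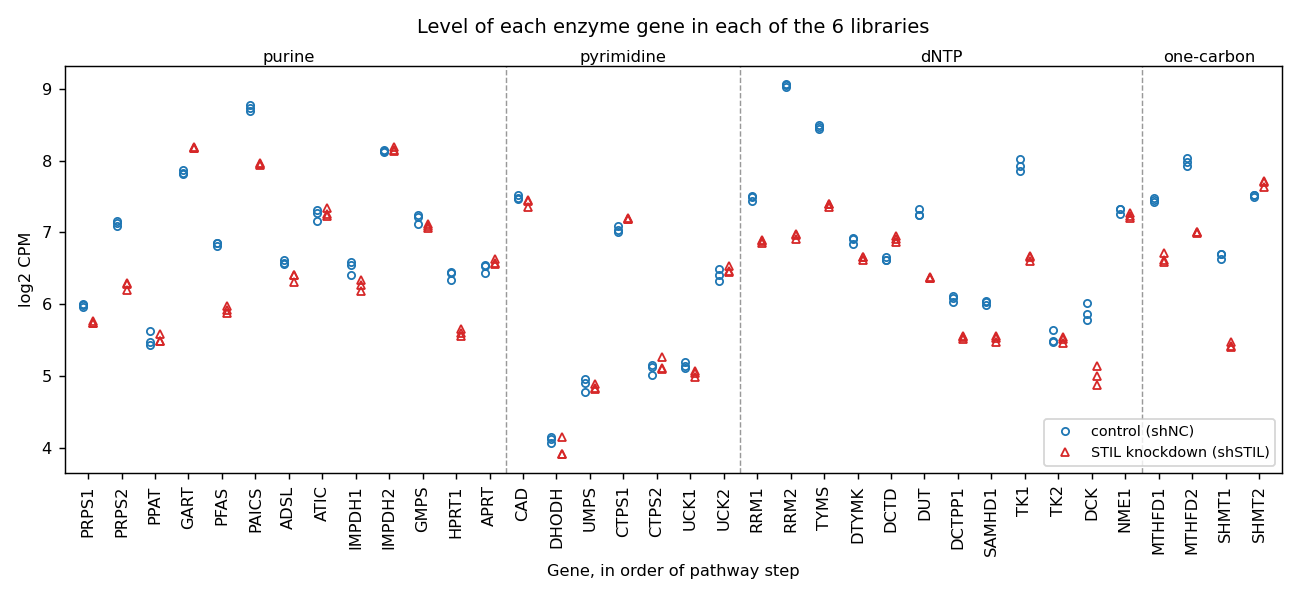
Log2 CPM of the 36 genes in each of the 6 libraries, by branch and pathway step, with circles for control and triangles for STIL-knockdown libraries. The widest gaps between the groups are in RRM2, TK1, SHMT1 and TYMS, and the groups overlap for TK2, PPAT and IMPDH2.

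Among the 13 purine genes 7 were lower, 1 higher and 5 not called, with a median log2 fold change of -0.21, and 84.6% of their summed level was left (1936 to 1967 CPM in control and 1641 to 1678 CPM in STIL-knockdown libraries). The 6 genes of the ring-building steps, PPAT, GART, PFAS, PAICS, ADSL and ATIC, did not move together: 3 were lower, 1 was higher and 2 were not called. Of all genes, 23.6% were called lower and 23.5% higher. PPAT encodes the amidotransferase of the committed step. PPAT (chromosome 4, 56393362 to 56435615, minus strand) had a log2 CPM of 5.43, 5.63 and 5.48 in control libraries and 5.49, 5.58 and 5.48 in STIL-knockdown libraries, with a log2 fold change of 0.01 (SE 0.06, limma adjusted p = 0.93). PAICS (56435741 to 56464579, plus strand) carries out a later carboxylation and ligation and starts on the other side of the 125 bases printed above. Its log2 CPM was 8.69, 8.77 and 8.72 in control libraries and 7.94, 7.96 and 7.96 in STIL-knockdown libraries, a log2 fold change of -0.78 (SE 0.03, limma adjusted p = 2.1e-10). The groups thus overlapped for the gene on one side of that stretch and not for the gene on the other.

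PFAS, the amidotransferase that follows GART, fell most in this branch. PFAS (chromosome 17, 8247618 to 8270491, plus strand) had a log2 CPM of 6.85, 6.81 and 6.85 in control libraries and 5.98, 5.89 and 5.92 in STIL-knockdown libraries. Its log2 fold change was -0.91 (SE 0.04, limma adjusted p = 3.6e-10), which left 53.3%. GART, whose protein carries 3 activities of this route, rose. Its log2 CPM was 7.81, 7.82 and 7.86 in control libraries and 8.19, 8.18 and 8.18 in STIL-knockdown libraries, a log2 fold change of 0.35 (SE 0.03, limma adjusted p = 2.9e-07) and 127% of control. It was the largest rise of the 36 genes, and its exons share 275 bases with SON on the opposite strand (log2 fold change 0.12). ADSL, which acts in the ring and in making AMP, fell by 0.21 (limma adjusted p = 3.8e-04), a call lost without control replicate 1 (-0.19, limma adjusted p = 0.011). ATIC, which closes the ring, showed a log2 fold change of 0.03 (adjusted p = 0.60, limma).

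Both PRPS genes, which make the ribose phosphate donor PRPP, were lower, to different extents. PRPS2 (chromosome X, 12791355 to 12824222, plus strand) had a log2 CPM of 7.16, 7.13 and 7.09 in control libraries and 6.28, 6.29 and 6.19 in STIL-knockdown libraries, with a log2 fold change of -0.87 (SE 0.04, limma adjusted p = 5.6e-10). PRPS1 had a log2 CPM of 5.998, 5.99 and 5.96 in control libraries and 5.77, 5.74 and 5.73 in STIL-knockdown libraries, with a log2 fold change of -0.24 (SE 0.04, limma adjusted p = 1.5e-04). The per-length ratio of PRPS1 to PRPS2 was 0.528 ± 0.006 in control and 0.821 ± 0.026 in STIL-knockdown libraries (SD, n = 3), so the paralogs were nearer in level in STIL-knockdown cells. RSEM shares reads between alike transcripts, which leaves the split between close paralogs uncertain.

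At the branch point to GMP, IMPDH2 is the abundant dehydrogenase and IMPDH1 the minor one. IMPDH2 had a log2 CPM of 8.15, 8.12 and 8.13 in control libraries and 8.13, 8.19 and 8.15 in STIL-knockdown libraries, with groups that overlapped and a log2 fold change of 0.03 (SE 0.03, limma adjusted p = 0.50). IMPDH1 had a log2 CPM of 6.59, 6.41 and 6.55 in control libraries and 6.19, 6.33 and 6.27 in STIL-knockdown libraries, with a log2 fold change of -0.25 (SE 0.05, limma adjusted p = 8.6e-04). The IMPDH1 call was lost in 5 of the 6 fits that left out 1 library. The log2 fold change (limma adjusted p) was -0.21 (0.046), -0.28 (0.022) and -0.25 (0.048) without STIL-knockdown replicates 1, 2 and 3, and -0.21 (0.042) and -0.23 (0.046) without control replicates 1 and 3. GMPS, which completes GMP, showed a log2 fold change of -0.10 (adjusted p = 0.043, limma) and was called only without control replicate 1 among these fits (-0.14, limma adjusted p = 0.0096). Of the base salvage enzymes, HPRT1, which returns hypoxanthine and guanine, had a log2 CPM of 6.34, 6.45 and 6.44 in control libraries and 5.57, 5.66 and 5.60 in STIL-knockdown libraries. It fell by a log2 fold change of -0.80 (SE 0.04, limma adjusted p = 4.4e-09), to 57.3% of control. APRT, which returns adenine, showed a log2 fold change of 0.08 (adjusted p = 0.11, limma).

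No pyrimidine gene was called lower by limma, or by edgeR or DESeq2 on recovered reads, and 2 (CAD and UCK1) were lower at an unadjusted limma p under 0.05. The summed level of the 7 genes was 509 to 515 CPM in control and 505 to 526 CPM in STIL-knockdown libraries, 101% of control, and their median log2 fold change was -0.03. CAD, the protein with the first activities of the route, had a log2 CPM of 7.52, 7.46 and 7.48 in control libraries and 7.43, 7.35 and 7.45 in STIL-knockdown libraries, with a log2 fold change of -0.08 (SE 0.04, limma adjusted p = 0.074). DHODH, the mitochondrial dehydrogenase of the route, had a log2 fold change of -0.12 (SE 0.08, limma adjusted p = 0.23), and UMPS, which completes UMP, -0.03 (SE 0.06, limma adjusted p = 0.70). These standard errors leave room for small changes. CTPS1, which makes CTP from UTP, was the 1 gene called, with a log2 CPM of 7.03, 7.08 and 7.01 in control libraries and 7.19, 7.19 and 7.21 in STIL-knockdown libraries (log2 fold change 0.15, SE 0.03, limma adjusted p = 0.0013). That call was lost in 5 of the 6 fits that left out 1 library. The log2 fold change (limma adjusted p) was 0.15 (0.012), 0.16 (0.011) and 0.14 (0.015) without STIL-knockdown replicates 1, 2 and 3, and 0.15 (0.011) and 0.14 (0.011) without control replicates 1 and 3.

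The second CTP synthase, CTPS2, had a log2 CPM of 5.12, 5.16 and 5.02 in control libraries and 5.27, 5.10 and 5.11 in STIL-knockdown libraries (log2 fold change 0.06, SE 0.06, limma adjusted p = 0.44). UCK1 and UCK2 encode uridine-cytidine kinases of salvage. UCK1 had a log2 CPM of 5.14, 5.12 and 5.19 in control libraries and 5.08, 4.99 and 5.04 in STIL-knockdown libraries, with a log2 fold change of -0.11 (SE 0.05, limma adjusted p = 0.075). UCK2 had a log2 CPM of 6.32, 6.41 and 6.50 in control libraries and 6.54, 6.45 and 6.46 in STIL-knockdown libraries, with a log2 fold change of 0.07 (SE 0.05, limma adjusted p = 0.19). Only UCK1 of these 3 had groups that did not overlap.

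In the one-carbon branch 3 of 4 genes were lower, against 23.6% of all genes, and the mitochondrial serine enzyme was higher. Their summed level was 696 to 720 CPM in control and 466 to 486 CPM in STIL-knockdown libraries, which left 67.0%, and their median log2 fold change was -0.89. SHMT1 and SHMT2 move a one-carbon unit from serine to folate, SHMT1 in the cytosol and SHMT2 in mitochondria. SHMT1 (chromosome 17, 18327860 to 18363563, minus strand) had a log2 CPM of 6.70, 6.63 and 6.69 in control libraries and 5.41, 5.47 and 5.41 in STIL-knockdown libraries. It fell by a log2 fold change of -1.24 (SE 0.04, limma adjusted p = 3.0e-11), to 42.2% of control. SHMT2 (chromosome 12, 57229327 to 57234935, plus strand) had a log2 CPM of 7.49, 7.53 and 7.51 in control libraries and 7.63, 7.70 and 7.72 in STIL-knockdown libraries, with a log2 fold change of 0.17 (SE 0.03, limma adjusted p = 4.7e-04). The call for SHMT2 was lost in 4 of the 6 fits that left out 1 library. The log2 fold change (limma adjusted p) was 0.17 (0.014) and 0.16 (0.013) without STIL-knockdown replicates 2 and 3, and 0.16 (0.012) and 0.18 (0.012) without control replicates 1 and 3. The per-length ratio of SHMT1 to SHMT2 was 0.577 ± 0.021 in control and 0.216 ± 0.007 in STIL-knockdown libraries (SD, n = 3).

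MTHFD1 and MTHFD2 interconvert folate-borne one-carbon units, MTHFD1 in the cytosol and MTHFD2 in mitochondria. MTHFD2 (chromosome 2, 74198562 to 74217565, plus strand) had a log2 CPM of 7.92, 8.04 and 7.97 in control libraries and 6.99, 7.01 and 7.001 in STIL-knockdown libraries, with a log2 fold change of -0.98 (SE 0.03, limma adjusted p = 8.6e-11). MTHFD1 (chromosome 14, 64388031 to 64463457, plus strand) had a log2 CPM of 7.42, 7.45 and 7.48 in control libraries and 6.62, 6.72 and 6.59 in STIL-knockdown libraries, with a log2 fold change of -0.81 (SE 0.04, limma adjusted p = 1.2e-09). Both were lower in every STIL-knockdown library, to 50.9% and 57.1% of control. The branch was therefore not split by compartment, since the mitochondrial MTHFD2 was lower while the mitochondrial SHMT2 was not. MTHFD2 shares 1324 exon bases with SLC4A5 on the opposite strand, a gene of low level that had a log2 fold change of 0.99.

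Whether the partners of a step changed by unequal amounts was compared in 8 pairs of subunits or paralogs, as the difference of their log2 CPM (a log2 ratio) within each library, which does not depend on how the library was scaled. The ratio did not overlap between the groups for 7 of the 8 pairs, of which 5 were lower and 2 higher in STIL-knockdown cells. Of all genes taken singly 60.3% did not overlap, and the share for pairs of other genes was not computed. Each of the 7 had an exact two-sided permutation p of 0.1, the smallest that 3 libraries against 3 allow, and 0.114 after adjustment over the 8 pairs, so none could reach 0.05. The log2 ratio differed most between the groups for RRM2 to RRM1 (-1.48), SHMT1 to SHMT2 (-1.42, SE 0.04) and TK1 to TK2 (-1.26, SE 0.08). It was higher by 0.64 (SE 0.03) for PRPS1 to PRPS2 and by 0.17 (SE 0.05) for MTHFD1 to MTHFD2. It was lower for IMPDH1 to IMPDH2 (-0.28, SE 0.05) and UCK1 to UCK2 (-0.19, SE 0.04). For CTPS1 to CTPS2 the groups overlapped, with a difference of 0.09 (SE 0.06, exact permutation p = 0.3).

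**Figure D3:**
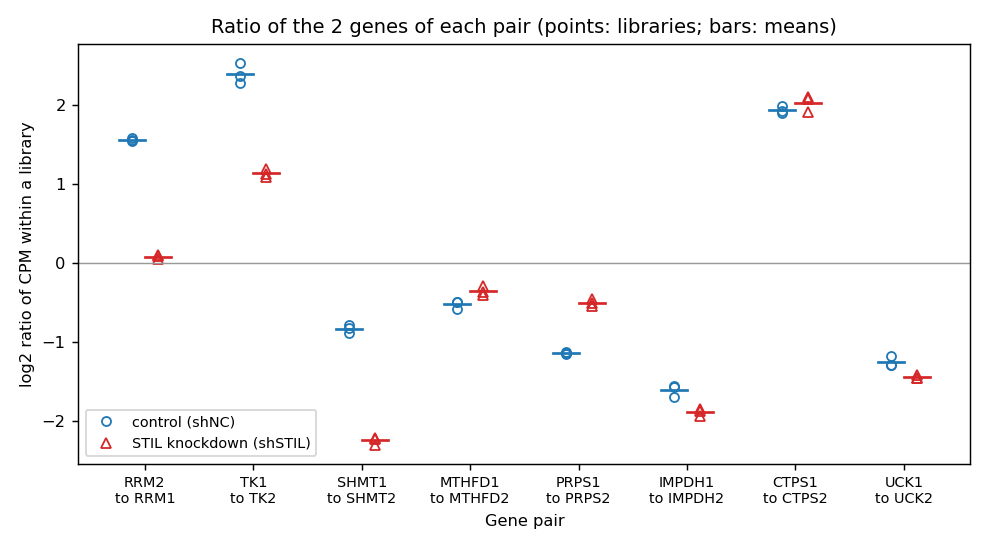
Log2 ratio of the CPM of the 2 genes within each of the 8 pairs, with 1 point per library and control and STIL-knockdown libraries in different colours and bars at the group means. The groups are farthest apart for RRM2 to RRM1, SHMT1 to SHMT2 and TK1 to TK2, and overlap for CTPS1 to CTPS2.

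Levels of different genes were compared as RPKM, the CPM divided by the length in kilobases of the longest coding transcript. The order depends on these lengths, and which transcripts the cells used was not determined. Without division by length, RRM2 (mean log2 CPM 9.05) and PAICS (8.73) lay above TYMS (8.46) in control cells. PAICS, with a length of 6480 bases, had rank 11 by RPKM in control cells. By RPKM, TYMS was the highest of the 36 in control cells (212 ± 4 RPKM, SD, n = 3), followed by IMPDH2 (170 ± 2), TK1 (145 ± 8) and RRM2 (144 ± 2). The last 2 of these did not differ beyond their spread. In STIL-knockdown cells IMPDH2 ranked first (174 ± 4 RPKM), followed by APRT (102 ± 3) and TYMS (100.4 ± 1.7), which lay within each other's spread. RRM2 moved from rank 4 to rank 16 (33.7 ± 1.0 RPKM), and TK1 from rank 3 to rank 10 (59.4 ± 1.2 RPKM). GART moved up, from rank 12 (65.3 ± 1.2 RPKM) to rank 5 (83.2 ± 0.4 RPKM). DHODH (3.56 ± 0.10 RPKM in control libraries), UMPS (4.36 ± 0.29) and CTPS2 (7.92 ± 0.40) were the 3 lowest by RPKM in both groups.

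**Figure D4:**
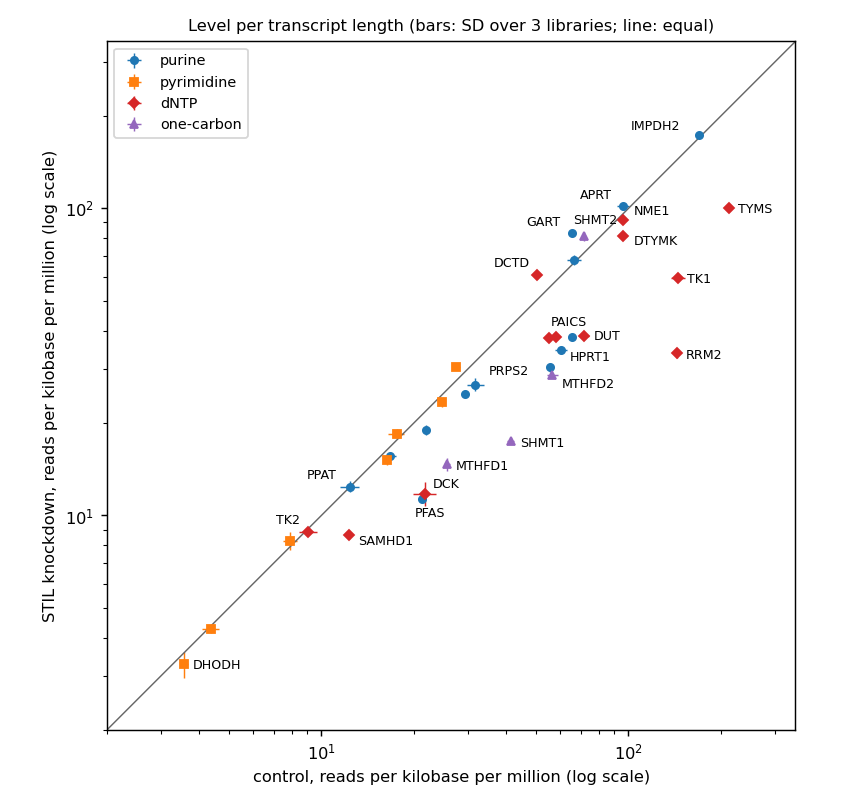
Level of the 36 genes per transcript length (RPKM, log axes) in control against STIL-knockdown cells, as means of 3 libraries with SD bars. The line marks equal levels, and RRM2, TK1, TYMS and SHMT1 lie farthest below it.

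The rest of the pathway was read from 63 other genes, of which 21 were lower, 16 higher and 26 not called. Their median log2 fold change was -0.08, and 97.9% of their summed level was left. Of 12 further dNTP genes, 6 were lower and 3 higher. Of 23 further purine genes, 5 were lower and 4 higher, against background shares of 23.6% and 23.5%. GUK1, guanylate kinase, was lower, with a log2 CPM of 6.86, 6.72 and 6.79 in control libraries and 5.51, 5.78 and 5.79 in STIL-knockdown libraries (log2 fold change -1.10, limma adjusted p = 1.0e-08). XDH, which oxidises purine bases to uric acid, was higher at few reads (51 to 136 per library), with a log2 fold change of 1.09 (adjusted p = 9.6e-06, limma). Of 8 further pyrimidine genes, 2 were lower and 2 higher, and UPP1, the uridine phosphorylase that degrades uridine, rose by a log2 fold change of 1.15 (adjusted p = 4.5e-11, limma), from 6.23, 6.11 and 6.16 to 7.28, 7.34 and 7.33 in log2 CPM.

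Of 20 further one-carbon genes, 8 were lower and 7 higher, against 23.6% and 23.5% of all genes. Some of them were named after their values were seen. PHGDH and PSAT1, which make serine, were higher (log2 fold changes 0.54 and 0.48), while PSPH, the phosphatase that completes serine, was lower (-0.36). MTHFD1L, which releases formate in mitochondria, was higher (0.57), beside the lower MTHFD2 of the same compartment. RRM2B, the p53-inducible small subunit of ribonucleotide reductase, was also picked after its value was seen and was higher (log2 fold change 0.28, limma adjusted p = 0.0028), where RRM2 fell.

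The words of 4 motifs were searched on both strands from 250 bases before to 50 after each RefSeq start, for the 33 of 36 genes with such a window. An E2F word lay in 5 of the 33 genes (15.2%), DCK, DUT, GART, PRPS2 and TYMS, of which 4 were lower and 1 higher. Of the 12621 measured genes with a window 6.07% held one, as did 3.99% of all 27305 genes with a window and 3.31% of the 35116 windows of this length. The CCAAT box (CCAAT) lay in 14 of 33 genes (42.4%, against 42.7% of measured and 39.7% of all genes), 9 of them lower, RRM1, RRM2 and TK1 included. The E-box CACGTG lay in 8 of 33 genes (24.2%, against 11.8% of measured and 8.77% of all genes), of which 4 were lower and 4 not called, and PPAT and PAICS share 1 such match at chr4:56435792-56435797. The ATF4 element TGATGNAA lay in 1 of 33 genes, DCTD (3.03%, against 3.03% of measured and 4.46% of all genes). Genes with several starts count once where any window holds a match. A match describes the letters in a window and not binding, which was not measured.

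Of the 36 genes, 12 share exon bases with another measured gene, 10 of them with a gene on the opposite strand. Besides those given above, the partners were POMT1 (UCK1), TMCO1 (UCK2), TYMSOS (TYMS), ZNF771 (DCTPP1), TLDC2 (SAMHD1), ZBTB25 (MTHFD1), SMCR8 (SHMT1) and NDUFA4L2 (SHMT2). The values of these genes are uncertain to the extent that reads of the partners were assigned to them.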

How the data were processed

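Total RNA of the 6 libraries was sequenced on the BGISEQ-500. Per the labels and the study's methods, the authors filtered reads with SOAPnuke, aligned them with Bowtie2 to transcripts of hg38 and estimated counts per gene with RSEM (versions not given in the sources used here). The authors deposited estimated counts for 1 control and 3 STIL-knockdown libraries and log2 CPM, edgeR style with a prior count of 2, for all 6. Reads behind the deposited log2 values were recovered and differed from the deposited estimated counts by at most 0.0077 reads. Of the recovered values per gene, zeros included, 87.5% to 87.8% in each library were whole numbers to within 0.01.

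The log2 CPM of all 15953 genes were fitted with limma 3.58.1 (lmFit, eBayes with a trend) in R 4.3.3, with Benjamini-Hochberg adjustment. Fold changes of low genes are understated by the prior count. Recovered reads were rounded for edgeR 4.0.16 (quasi-likelihood) and DESeq2 1.42.0, as alternatives. The fits were also run on simulated data as a check of the code. Those data had far fewer changed genes and the same spread setting for every gene, so they do not show how well the calls hold here. Gene positions and transcript lengths are of GENCODE 29. The genes and lists were chosen with earlier results of these data known. Given in full are called genes with an absolute log2 fold change of at least 0.5 and both genes of each pair. Of other lists, called genes with at least 1 are named, except 1 gene that is not reported here. Control libraries carry siNC and knockdown libraries siSTIL in the column headings, and were grouped by their labels (shNC, shSTIL).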

Additional observations from a re-analysis of the deposited data

How the results depend on the processing

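Of 540 log2 fold changes of the 36 genes under 15 alternative fits or thresholds, 510 kept their direction and their side of the threshold. These alternatives take in the 0.05 threshold and leave out limma treat against 1.2-fold. All 23 called genes kept their direction, and 19 kept the call whichever of the 6 libraries was left out. With treat counted in place of the 0.05 threshold, 15 of the 23 kept the call in every alternative. The number of called genes was 23 in the report, 15 with limma treat against 1.2-fold and 20 to 23 with 1 library left out. Under treat, which asks for a minimum change, 0 were higher (1, GART, at an unadjusted limma p under 0.05), 4 purine genes were lower, 3317 of all genes (1759 lower, 1558 higher) and 20 other pathway genes (9 lower) were called. Higher genes among the 36 numbered 2 without the variance trend and 2 to 4 with 1 library left out. The fits that left out 1 library have fewer samples. They called 4900 to 5638 of all genes, 2500 to 2837 lower and 2400 to 2801 higher, each lowest without STIL-knockdown replicate 3. They called 13 to 18 other pathway genes lower, with 13 without STIL-knockdown replicate 1. Without the trend, the adjusted p was 0.012 for ADSL, 0.027 for IMPDH1, 0.020 for CTPS1 and 0.016 for SHMT2.

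Signs turned in 4 genes that were not called. With 1 library left out, PPAT ran from -0.033 to 0.064, ATIC from -0.014 to 0.057, UMPS from -0.083 to 0.012 and TK2 from -0.061 to 0.021 on the log2 scale. PPAT was -0.025 without STIL-knockdown replicate 2, -0.033 without control replicate 1 and -0.010 without control replicate 3. ATIC was -0.0037 without STIL-knockdown replicate 2 and -0.014 without control replicate 1. UMPS was 0.013 under median centring and 0.012 without control replicate 2, and TK2 was 0.010 under median centring and 0.021 without control replicate 3. For the fits that left out 1 library, which have fewer samples, the cause was not tested. Median centring kept all 6 libraries and shifts all genes of a library alike. It moved the median of all genes from 0.0052 to 0.048, UMPS from -0.030 to 0.013 and TK2 from -0.033 to 0.010.

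With the replicate number as a block, 6898 of all genes and 23 of the 36 genes (19 lower, 4 higher) were called. The deviations of same-numbered libraries from the means of their groups correlated at -0.12, -0.06 and -0.11 over 11319 genes, and no pairing by number was taken. Depth limits the other pathway genes with few reads, such as XDH, more than the 36 genes.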
